A study of Mus musculus with 16 samples.

Results

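The transcripts of 10 circadian clock genes were followed in mouse bone marrow-derived macrophages given platelets or thrombin. The 10 are Per1, Per2, Per3, Cry1, Cry2, Nr1d1, Nr1d2, Dbp, Bhlhe40 and Nfil3, taken by gene symbol from the 46320 genes of the count table, and each symbol matched 1 row. Expression had been measured by bulk RNA sequencing of 16 libraries, 4 in each of 4 groups. With thrombin-activated platelets, 6 of the 10 genes were higher than with vehicle, beside 12.2% of all genes tested, and 2 were lower, beside 13.6%. Bhlhe40 was 2.21-fold higher and Dbp 1.98-fold lower.

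All groups held macrophages grown for 7 days from the marrow of C57BL6/J mice, and L929-conditioned medium supplied the macrophage growth factor M-CSF. The cells were plated at 400000 per well and kept for 4 h in medium with 0.5% fetal calf serum before a 4 h treatment. The groups were macrophages with thrombin-activated platelets, macrophages with resting platelets, macrophages with thrombin and no platelets, and macrophages with vehicle (PBS). Platelets came from the blood of C57BL6/J mice, and the labels give no age. For the thrombin group the sample labels give 0.1 U/ml, whereas the protocol gives 0.01 U/ml for thrombin alone and for platelet activation. The labels do not say whether replicates came from separate mice or cultures, so p-values measure only the spread between these libraries. Each well was sequenced as a whole, so fewer cells of a type and less RNA per cell cannot be told apart.

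The mammalian clock is a feedback loop of transcription. CLOCK and BMAL1 (Arntl in this table), or NPAS2 in place of CLOCK, bind DNA words called E-boxes and switch on the Per and Cry genes, whose proteins return to block CLOCK and BMAL1. A linked loop runs through the nuclear receptors REV-ERBα (Nr1d1) and REV-ERBβ (Nr1d2), which repress Arntl at ROR elements, where the ROR receptors activate. DBP and NFIL3 act on shared D-box words, DBP as an activator and NFIL3 as a repressor, and BHLHE40 (DEC1) represses at E-boxes. In macrophages this clock is known for timing inflammatory and trafficking genes.

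Promoter windows were found for 8 of the 10 genes, Per2 and Bhlhe40 being the others, in RefSeq's GRCm38.p6 annotation, with 9 windows because Per1 has 2. A window ran from 250 bases before the start site to 50 after it. Both strands were searched for the E-box CACGTG, the related E-prime box CACGTT, the D-box TTATGTAA or TTATGCAA, the ROR element TAGGTCA and the cAMP element TGACGTCA; these words do not overlap one another in the windows shown. The first base of the E-box lay 166 bases before the start site in Per1 and 60 before it in Cry1. E-prime boxes lay 79 bases before the start in Cry1, 166 before it in Cry2 and 28 before it in Nr1d1. Per3 held 2 D-boxes, at 205 and 158 bases before the start, and Per1 held 1 at 24. Nfil3 held a ROR element 12 bases before its start. None of the 9 windows held the cAMP element, and the Dbp and Nr1d2 windows held none of these words. Among 32851 windows of the same length, 7.15% held the E-box, 4.68% the E-prime box, 1.66% the D-box, 2.61% the ROR element and 1.79% the cAMP element. A match is a string of letters, and binding was not measured.

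The 250 bases before the start are shown for 4 genes that between them carry each kind of word found, with the words in capitals and each sequence in its gene's own direction. They are Per1 at chr11:69098699-69098948 on the plus strand, Per3 at chr4:151044666-151044915, Cry1 at chr10:85185055-85185304 and Nfil3 at chr13:52981040-52981289, the last 3 on the minus strand (RefSeq, GRCm38.p6). In Cry1 and Nfil3, AACGTG and TGACCTA are the E-prime box and the ROR element read from the other strand.
Per1: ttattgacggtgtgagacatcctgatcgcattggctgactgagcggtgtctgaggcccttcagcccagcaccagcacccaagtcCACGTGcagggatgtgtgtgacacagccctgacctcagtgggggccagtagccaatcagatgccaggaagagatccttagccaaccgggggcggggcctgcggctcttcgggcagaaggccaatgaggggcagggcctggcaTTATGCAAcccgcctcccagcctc
Per3: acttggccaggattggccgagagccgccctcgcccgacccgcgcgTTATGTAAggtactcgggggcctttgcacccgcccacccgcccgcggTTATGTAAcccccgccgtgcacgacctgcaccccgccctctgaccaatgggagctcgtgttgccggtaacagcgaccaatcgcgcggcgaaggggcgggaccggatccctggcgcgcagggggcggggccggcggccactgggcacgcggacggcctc
Cry1: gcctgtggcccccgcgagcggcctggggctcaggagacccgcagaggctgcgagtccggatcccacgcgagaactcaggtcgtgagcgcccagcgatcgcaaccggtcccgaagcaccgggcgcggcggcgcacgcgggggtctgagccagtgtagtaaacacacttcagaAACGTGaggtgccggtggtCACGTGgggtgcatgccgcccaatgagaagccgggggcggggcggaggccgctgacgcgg
Nfil3: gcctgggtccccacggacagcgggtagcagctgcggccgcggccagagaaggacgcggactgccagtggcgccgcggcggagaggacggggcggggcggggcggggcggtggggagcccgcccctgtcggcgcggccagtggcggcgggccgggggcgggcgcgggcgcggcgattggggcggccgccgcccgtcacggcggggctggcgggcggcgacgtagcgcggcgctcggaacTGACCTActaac

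Library totals were 28034884 to 30602623 counts with activated platelets, 24857490 to 26355697 with resting platelets, 23149061 to 26716910 with thrombin and 22555094 to 27691609 with vehicle. Values are counts-per-million values (CPM), the estimated count scaled to the library total. The 10 genes were counted well enough to be tested in every comparison, with from 121 counts (Cry1) to 3728 counts (Nr1d2) in a library. Marker genes of macrophages summed to 1.67 to 2.11% of counts with activated platelets and 1.73 to 2.11% with vehicle, and all 8 had counts in every group. The 16 platelet markers summed to 0.0399 to 0.0441% of counts with activated platelets, 0.0235 to 0.028% with resting platelets, 0.0216 to 0.0243% with thrombin and 0.0205 to 0.026% with vehicle. Of these, Gp9 was at 0 in all thrombin and vehicle libraries. The 7 red cell markers summed to 0.000778 to 0.00141% with activated platelets, 8.05e-05 to 0.000296% with resting platelets, at most 4.07e-06% with thrombin and at most 7.33e-06% with vehicle. The 10 lymphocyte markers summed to 0.00125 to 0.00226% with activated platelets and 0.00231 to 0.00446% with vehicle. Neutrophil markers (0.0036 to 0.00869% with activated platelets, 0.00141 to 0.00474% with vehicle) and stromal markers (0.199 to 0.436% with activated platelets, 0.247 to 0.509% with vehicle) overlapped between those groups. The part of RNA from these other cells in the changes below was not tested.

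Calls used edgeR's quasi-likelihood test on 15610 genes, with a Benjamini-Hochberg adjusted p under 0.05 over all of them, and error terms on log2 fold changes are standard errors. With activated platelets against vehicle, 6 of the 10 clock genes rose, beside 12.2% of all genes tested, and 2 fell, beside 13.6% of all genes. Per1, Per2, Cry1, Nr1d1, Bhlhe40 and Nfil3 were the 6 that rose, and Per3 and Dbp were the 2 that fell. The median size of the log2 fold change was 0.51 for the 10 genes and 0.15 for all genes tested. The 10 genes were chosen with earlier results of these data known, so these contrasts with all genes were not independent of the choice. By role, the genes that rose were Per1 and Per2, a cryptochrome, a REV-ERB, the D-box repressor and an E-box repressor. Those that fell were the third PERIOD gene and the D-box activator. The other cryptochrome, Cry2 (-0.12 ± 0.07), and the other REV-ERB, Nr1d2 (-0.14 ± 0.06), did not pass. Outside the 10, Bhlhe41, the relative of Bhlhe40, was at -0.25 ± 0.09 and did not pass, while the activator Arntl rose by 0.43 ± 0.09.

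**Figure D1:**
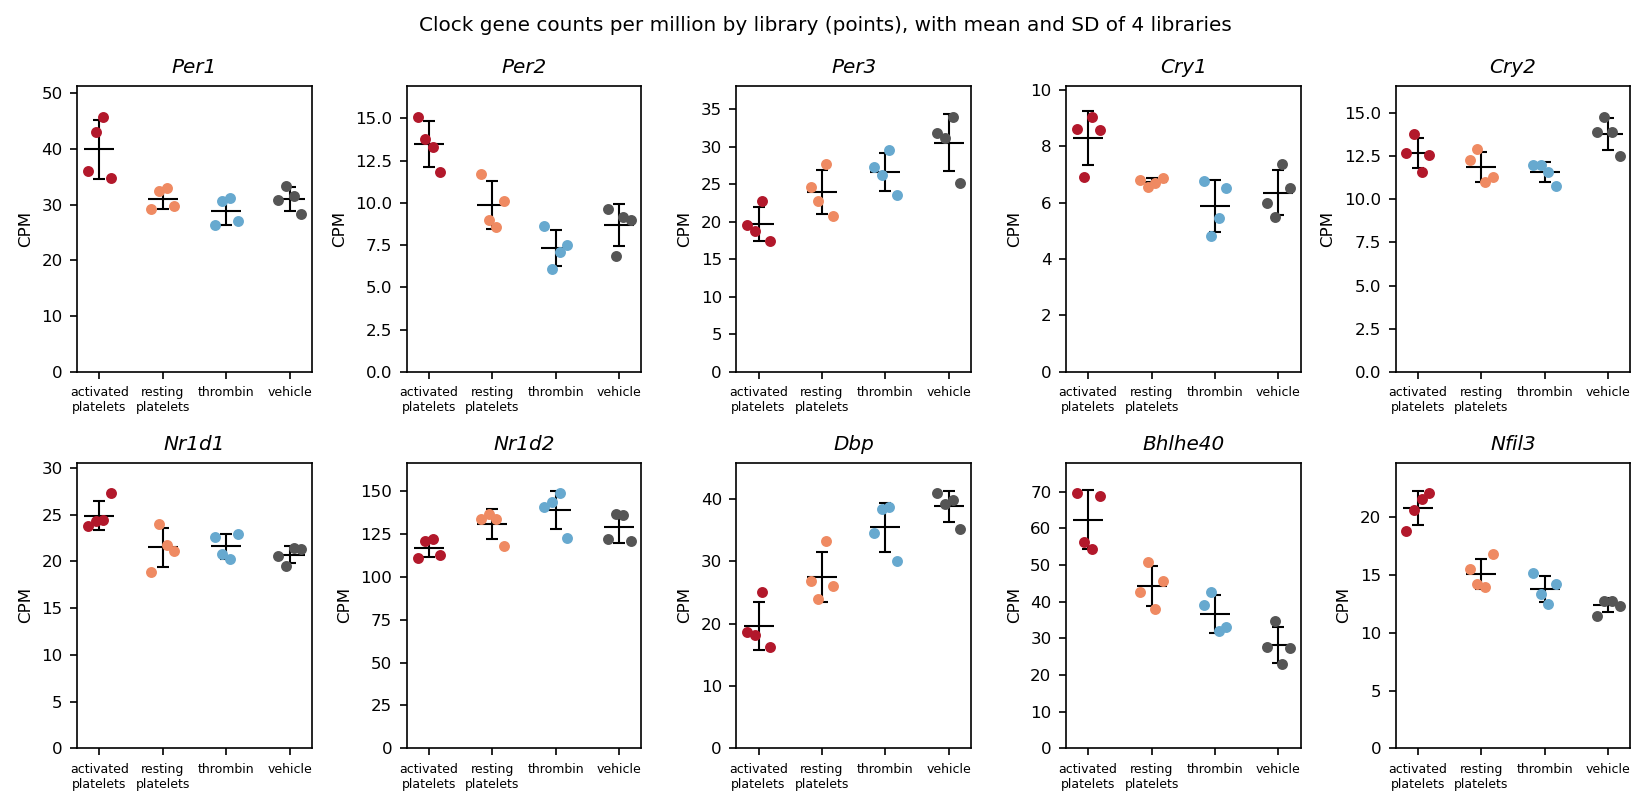
CPM (vertical axes, from 0) of each of the 10 clock genes in the 4 groups, 1 point per library, with the mean and SD of 4 libraries as a bar. With activated platelets Bhlhe40 sat between 54.4 and 69.6 CPM and with vehicle between 23.1 and 34.8 CPM, while Dbp sat between 16.3 and 25.1 CPM with activated platelets and between 35.2 and 40.9 CPM with vehicle.

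Bhlhe40, the E-box repressor DEC1, rose most. It lies on chromosome 6 from 108637590 to 108643886, plus strand (GRCm39, as for all gene positions here). Bhlhe40 had 69.6, 56.3, 54.4 and 68.8 CPM in activated-platelet libraries 1 to 4, 42.5, 50.8, 37.9 and 45.7 CPM with resting platelets, 39.2, 42.7, 31.9 and 33 CPM with thrombin, and 27.5, 34.8, 23.1 and 27.4 CPM with vehicle. Every activated-platelet library was above every other library, and the vehicle group held the lowest values, with its replicate 2 inside the thrombin range. The log2 fold change of Bhlhe40 was 1.15 ± 0.13 for activated platelets over vehicle (adjusted p = 7.93e-06, edgeR, higher at 4 of 4 replicate numbers).

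Nfil3, the repressor at D-boxes, lies on chromosome 13 from 53121245 to 53136914, minus strand. Nfil3 had 18.8, 20.6, 21.6 and 22.1 CPM with activated platelets, 15.5, 14.2, 14 and 16.8 CPM with resting platelets, 15.2, 13.4, 12.5 and 14.2 CPM with thrombin, and 11.5, 12.8, 12.8 and 12.3 CPM with vehicle. The activated-platelet libraries stood above all others, the resting-platelet libraries stood above vehicle, and the thrombin libraries overlapped both the resting-platelet and the vehicle libraries. Over vehicle, activated platelets gave 0.75 ± 0.08 on the log2 scale, or 1.68-fold (adjusted p = 2.32e-06, edgeR).

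Dbp, the activator at the same D-boxes and a gene that CLOCK and BMAL1 drive directly, fell furthest. It lies on chromosome 7 from 45354518 to 45359627, plus strand. Dbp had 18.7, 18.2, 25.1 and 16.3 CPM with activated platelets, 26.8, 23.9, 33.2 and 26 CPM with resting platelets, 34.5, 38.3, 38.6 and 30.1 CPM with thrombin, and 40.9, 39.1, 39.8 and 35.2 CPM with vehicle. All activated-platelet and all resting-platelet libraries were below the vehicle range, and replicate 3 was the highest of both platelet groups. Activated platelets over vehicle gave Dbp -0.99 ± 0.12 on the log2 scale (adjusted p = 2.34e-05, edgeR, lower at 4 of 4 replicate numbers). Its span from gene start to gene end overlaps that of Sphk2 on the opposite strand by 741 bases, and exons were not compared. Sphk2 had 2244 to 3483 counts a library, and the counting's strand setting is not given in the sources used here. Sphk2 moved by 0.21 ± 0.08 on the log2 scale in the same comparison (adjusted p = 0.0596, edgeR; 0.000768 with the replicate number as a block), the direction opposite to Dbp.

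Per1 and Per2 encode the PERIOD proteins that, with the cryptochromes, block CLOCK and BMAL1; both are also known to respond quickly to outside signals. Per1 lies on chromosome 11 from 68985934 to 69000791, plus strand, and Per2 on chromosome 1 from 91343699 to 91387072, minus strand. Per1 had 36, 43, 45.8 and 34.8 CPM with activated platelets, 29.2, 32.4, 33 and 29.8 CPM with resting platelets, 26.4, 30.7, 31.2 and 27 CPM with thrombin, and 30.8, 33.4, 31.6 and 28.3 CPM with vehicle. Per2 had 15.1, 13.8, 13.3 and 11.8 CPM with activated platelets, 11.7, 8.99, 8.55 and 10.1 CPM with resting platelets, 8.63, 6.09, 7.08 and 7.51 CPM with thrombin, and 9.66, 6.86, 9.19 and 8.96 CPM with vehicle. For both genes every activated-platelet library was above every library of the other 3 groups, which overlapped one another. Over vehicle, Per1 rose by 0.36 ± 0.09 (adjusted p = 0.00526, edgeR) and Per2 by 0.63 ± 0.13 (adjusted p = 0.00154, edgeR) on the log2 scale.

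Per3, the third PERIOD gene, moved the other way. It lies on chromosome 4 from 151081475 to 151129167, minus strand. Per3 had 19.6, 18.8, 22.8 and 17.4 CPM with activated platelets, 24.6, 22.8, 27.7 and 20.7 CPM with resting platelets, 27.3, 26.2, 29.5 and 23.5 CPM with thrombin, and 31.8, 31.2, 34 and 25.1 CPM with vehicle. The activated-platelet and vehicle groups did not overlap; the resting-platelet group overlapped both, and the thrombin group overlapped vehicle. The log2 fold change of Per3 for activated platelets over vehicle was -0.64 ± 0.11, or 1.55-fold lower (adjusted p = 0.000391, edgeR).

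The cryptochromes Cry1 and Cry2 encode the partners of the PERIOD proteins in blocking CLOCK and BMAL1. Cry1 lies on chromosome 10 from 84967564 to 85020918 and Cry2 on chromosome 2 from 92233991 to 92264426, both on the minus strand. Cry1 had 8.62, 6.9, 9.06 and 8.58 CPM with activated platelets, 6.82, 6.56, 6.69 and 6.89 CPM with resting platelets, 6.78, 4.81, 5.46 and 6.53 CPM with thrombin, and 6.01, 5.5, 7.39 and 6.53 CPM with vehicle. Cry2 had 12.7, 13.8, 11.6 and 12.6 CPM with activated platelets, 12.3, 12.9, 11 and 11.3 CPM with resting platelets, 12, 12, 11.6 and 10.8 CPM with thrombin, and 13.9, 14.8, 13.9 and 12.5 CPM with vehicle. The activated-platelet and vehicle ranges overlapped for both genes. Cry1 rose by 0.38 ± 0.12 on the log2 scale over vehicle (adjusted p = 0.0233, edgeR), whereas Cry2 differed by -0.12 ± 0.07 (adjusted p = 0.243, edgeR). The Cry1 call was lost without activated-platelet replicate 1, 3 or 4, without vehicle replicate 1 or 2, and without all libraries numbered 1, 3 or 4, with adjusted p-values up to 0.124.

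Nr1d1 and Nr1d2 encode the REV-ERB repressors. Nr1d1 lies on chromosome 11 from 98658758 to 98666233, minus strand, and Nr1d2 on chromosome 14 from 4230549 to 4265640, plus strand. Nr1d1 had 23.8, 24.3, 24.4 and 27.3 CPM with activated platelets, 18.9, 24, 21.8 and 21.1 CPM with resting platelets, 22.6, 20.8, 20.2 and 22.9 CPM with thrombin, and 20.6, 19.5, 21.4 and 21.3 CPM with vehicle. Nr1d2 had 111, 121, 122 and 113 CPM with activated platelets, 134, 137, 134 and 118 CPM with resting platelets, 141, 144, 149 and 123 CPM with thrombin, and 122, 137, 136 and 121 CPM with vehicle. Nr1d1 in activated-platelet libraries was above the whole vehicle range, and the Nr1d2 ranges of those groups overlapped. Nr1d1 rose by 0.27 ± 0.07 on the log2 scale over vehicle (adjusted p = 0.00974, edgeR), a call lost without the 4 libraries numbered 4 (adjusted p = 0.062). Nr1d2 differed by -0.14 ± 0.06 (adjusted p = 0.123, edgeR), and with the replicate number as a block its adjusted p was 0.00204. The Nr1d1 gene span overlaps that of Thra on the opposite strand by 1075 bases. Thra had 823 to 1091 counts a library and differed by -0.09 ± 0.05 (adjusted p = 0.245, edgeR).

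**Figure D2:**
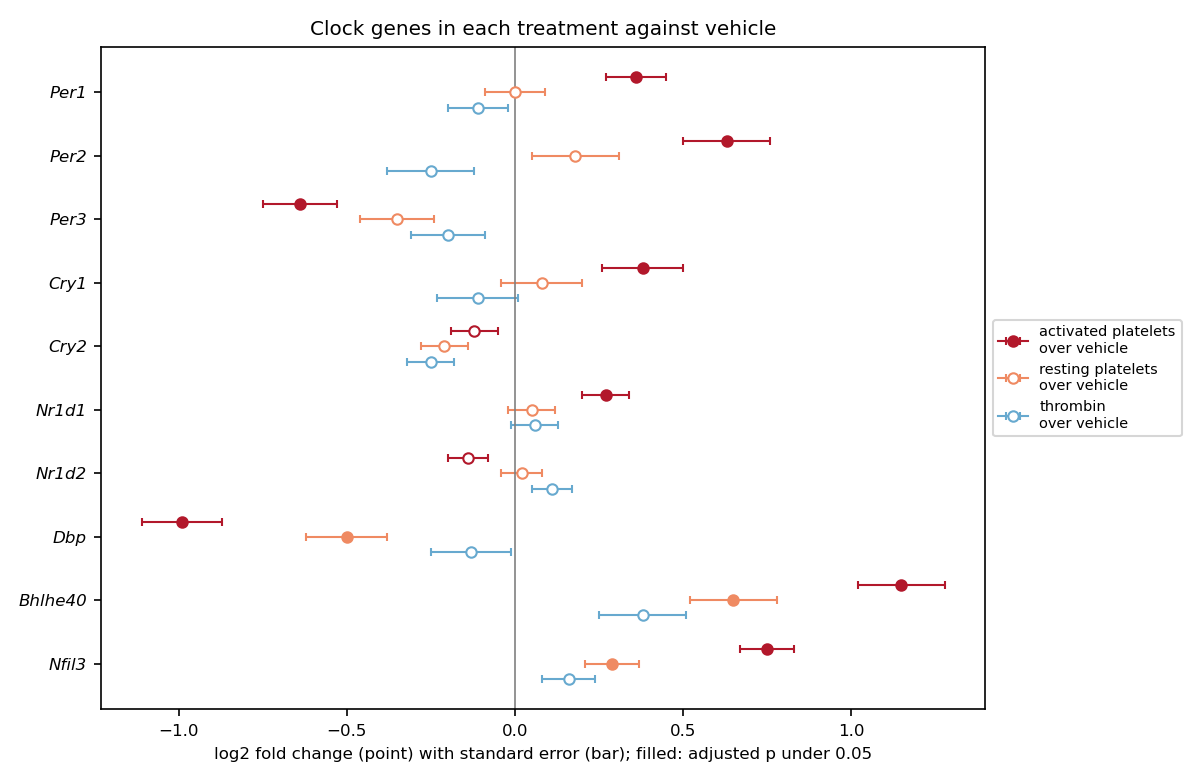
Log2 fold change over vehicle (horizontal axis) of the 10 clock genes with activated platelets, resting platelets and thrombin, with standard errors as bars; filled points have an adjusted p under 0.05 by edgeR. With activated platelets 8 points are filled, from -0.99 for Dbp to 1.15 for Bhlhe40, with resting platelets 3 and with thrombin 0.

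With resting platelets against vehicle, 2 of the 10 genes rose, beside 2.07% of all genes, and 1 fell, beside 1.32% of all genes. Bhlhe40 rose by 0.65 ± 0.13 on the log2 scale (adjusted p = 0.0127, edgeR) and Nfil3 by 0.29 ± 0.08 (adjusted p = 0.0475, edgeR). Dbp fell, at -0.50 ± 0.12 on the log2 scale (adjusted p = 0.0381, edgeR), and for these 3 genes the resting-platelet and vehicle ranges did not overlap. Per1 differed by 0.00 ± 0.09 and Nr1d2 by 0.02 ± 0.06, both short of the threshold. With the replicate number as a block, Per3 (adjusted p = 1.09e-05) and Cry2 (adjusted p = 0.0113) were also lower, which made 2 higher and 3 lower, beside 10.9% and 10.6% of all genes. Adding the GC correction to the block left Cry2 at 0.113 and Per3 at 2.45e-05. The unblocked calls changed when libraries were left out. Between 0 and 4 genes were called without 1 library or without all libraries of 1 number, with 0 called without number 1 or number 4. The Nfil3 call was lost in 11 of 12 such fits, all but that without resting-platelet replicate 3, and the Dbp call in 10 of 12, all but those without resting-platelet replicate 3 or number 3. With no filter on low counts Nfil3 (adjusted p = 0.0786) and Dbp (0.092) did not pass, and Nfil3 also did not by limma-voom (0.0563) or with these groups fitted alone (0.087). The Bhlhe40 call was lost without number 1 (adjusted p = 0.176) and without number 4 (adjusted p = 0.135).

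With thrombin and no platelets, none of the 10 genes passed the threshold against vehicle by edgeR, and 3 had an unadjusted p under 0.05, as did 1786 of the 15610 genes tested. By adjusted p, 0.0897% of all genes rose and 0.199% fell. The furthest from 0 were Bhlhe40 at 0.38 ± 0.13 (adjusted p = 0.244), Per2 at -0.25 ± 0.13 (adjusted p = 0.508) and Cry2 at -0.25 ± 0.07 (adjusted p = 0.169). Cry2 was the member whose thrombin and vehicle ranges did not overlap. With the replicate number as a block, Bhlhe40 was higher (adjusted p = 0.0387) and Per3 (adjusted p = 0.0114) and Cry2 (adjusted p = 0.0127) were lower, beside 3.91% of all genes higher and 4.32% lower. With the block and a correction for GC content, Per3 alone stayed under the threshold (adjusted p = 0.0412). DESeq2 and limma-voom also called 0 of the 10 without the block.

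Activated platelets were next set against thrombin alone. These groups differ by the platelets and, if the sample labels' 0.1 U/ml for thrombin holds, also by the thrombin dose. Of the 10 genes, 6 were higher, beside 11.9% of all genes, and 3 were lower, beside 13.5% of all genes. The 6 were those that rose against vehicle, and the comparison shares its activated-platelet libraries with that one. Per2 had the largest rise, 0.88 ± 0.13 on the log2 scale (adjusted p = 9.68e-05, edgeR), followed by Bhlhe40 at 0.76 ± 0.13 and Nfil3 at 0.59 ± 0.07. The genes that were lower were Dbp at -0.85 ± 0.12 (adjusted p = 9.31e-05, edgeR), Per3 at -0.44 ± 0.11 and Nr1d2 at -0.26 ± 0.06 (adjusted p = 0.00844, edgeR). The Nr1d2 call was lost without number 1 (adjusted p = 0.113) or number 3, the Per3 call without number 1 (adjusted p = 0.0828) or number 2, and the Cry1 call without number 3 (adjusted p = 0.0596). Nr1d1, at 0.20 ± 0.07 (adjusted p = 0.0417, edgeR), was lost without replicate 2 or 3 of either group, activated-platelet replicate 4, or number 2, 3 or 4, and its adjusted p was 0.0828 with the block and the GC correction.

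Activated against resting platelets compares wells that both held platelets. Of the 10 genes, 5 were higher with activated platelets, beside 7.34% of all genes, and 1 was lower, beside 8.49% of all genes. Nfil3 rose by 0.46 ± 0.07 (adjusted p = 0.000573, edgeR), Bhlhe40 by 0.49 ± 0.13 (adjusted p = 0.0144), Per1 by 0.36 ± 0.09 (adjusted p = 0.00999), Per2 by 0.45 ± 0.13 (adjusted p = 0.023) and Nr1d1 by 0.22 ± 0.07 (adjusted p = 0.0459) on the log2 scale. Dbp was the gene that fell, at -0.49 ± 0.12 (adjusted p = 0.0138, edgeR). With these groups fitted alone, Dbp (adjusted p = 0.0579) and Nr1d1 (adjusted p = 0.102) did not pass, and Nr1d1 also did not with no filter on low counts (0.0584) or with the block and the GC correction (0.0705). Nfil3 kept its call in all 12 fits that left out libraries, and the number of genes called ranged from 3 to 6 over those fits, with 3 without resting-platelet replicate 3 or without number 1, 3 or 4. The Per1 call was lost without number 3 (adjusted p = 0.0595), the Bhlhe40 call without number 1 or 4 (adjusted p up to 0.177), and the Dbp call without resting-platelet replicate 3 or number 1 or 4 (up to 0.132). Per2 was lost in 6 of the 12 (up to 0.161) and Nr1d1 in 9 of the 12 (up to 0.221). With the replicate number as a block Per3 (adjusted p = 4.75e-05), Cry1 (adjusted p = 0.00888) and Nr1d2 (adjusted p = 0.000877) also passed, Cry1 as higher and the others as lower.

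Whether thrombin acted differently with platelets present was tested as an interaction, the activated-over-resting change minus the thrombin-over-vehicle change. If the sample labels' 0.1 U/ml for thrombin alone holds, these changes also differ by the thrombin dose, which the interaction cannot tell apart from the platelets. Of the 10 genes, 3 had a positive interaction, beside 4.56% of all genes, and 0 a negative one, beside 5.37% of all genes. Per2 had the largest, 0.70 ± 0.18 on the log2 scale (adjusted p = 0.0234, edgeR): the change with thrombin was 0.45 with platelets present and -0.25 without them. For Per1 the interaction was 0.46 ± 0.12 (adjusted p = 0.0248, edgeR), from 0.36 with platelets and -0.11 without them. For Cry2 it was 0.34 ± 0.10 (adjusted p = 0.04, edgeR), from 0.09 and -0.25, neither of which passed on its own. Bhlhe40 and Per3 had interactions of 0.11 ± 0.18 and -0.09 ± 0.15 (adjusted p = 0.764 and 0.779, edgeR). Dbp and Nfil3 did not pass in this fit, and passed with the replicate number as a block.

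**Figure D3:**
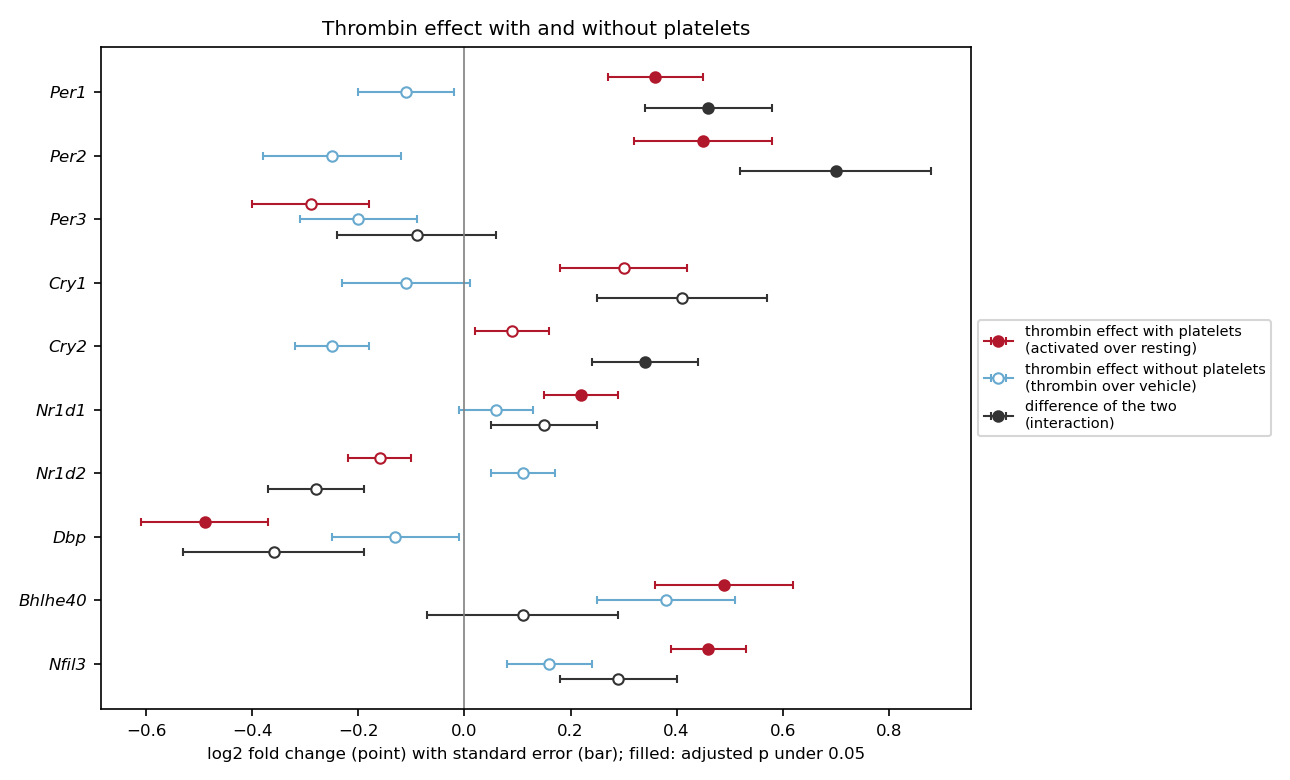
Log2 fold change (horizontal axis) of the 10 clock genes for thrombin with platelets (activated over resting), thrombin without platelets (thrombin over vehicle) and the difference of these, with standard errors; filled points have an adjusted p under 0.05 by edgeR. The difference is filled for Per1 at 0.46, Per2 at 0.70 and Cry2 at 0.34.

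With the replicate number as a block, 5 interactions were positive, beside 13.1% of all genes, and 2 negative, beside 15.9% of all genes, the further genes being Cry1 (adjusted p = 0.0183), Nfil3 (0.0299), Nr1d2 (0.000208) and Dbp (0.0139). Adding the GC correction to the block left Cry2 at 0.0667 and Nfil3 at 0.202. Over the genes tested, log2 fold changes without the block went with GC content. Spearman's rho was -0.442 for thrombin over vehicle and 0.383 for the interaction, and the cause was not tested. With the block and the GC correction, the Per1 change for thrombin over vehicle was 0.00. Without the block, leaving out 1 library or 1 number gave 0 to 4 called genes, with 0 without number 1 or 3. Per2 lost its call without activated-platelet replicate 1, vehicle replicate 1 or number 1, 3 or 4 (adjusted p up to 0.164), and Per1 without activated-platelet replicate 3, resting-platelet or thrombin replicate 1, or number 1, 2 or 3 (up to 0.15). The Cry2 call was lost in 16 of 20 such fits and with no filter on low counts (adjusted p = 0.0721).

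Levels between genes were compared per kilobase of exon. In vehicle macrophages Nr1d2 (16.6 CPM per kb) and Dbp (15.3 CPM per kb) were the most abundant, with overlapping ranges over the 4 libraries. Bhlhe40 followed at 9.06, Nr1d1 at 6.94, Per1 at 3.62, Per3 at 3.33, Cry2 at 3.33, Nfil3 at 2.77, Cry1 at 1.6 and Per2 at 1.42 CPM per kb. Of the neighbours in this order, Per1 overlapped Per3, Per3 overlapped Cry2, and Cry1 overlapped Per2. With activated platelets Bhlhe40 averaged 20 ± 2.59 CPM per kb, Nr1d2 15 ± 0.713, Nr1d1 8.36 ± 0.533 and Dbp 7.74 ± 1.51 CPM per kb (SD, n = 4 each), so Bhlhe40 headed the order.

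The replicate number went with part of the spread within groups. Per3 was highest in number 3 and lowest in number 4 in 4 of 4 groups, with number 3 between 0.15 and 0.22 above its group mean and number 4 between -0.27 and -0.17 from it on the log2 CPM scale. Per2 was highest in number 1 in 4 of 4 groups, Cry2 highest and Cry1 lowest in number 2, and Bhlhe40 lowest in number 3. In number 3, Per3 was therefore above its group mean and Bhlhe40 below it in every group.

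**Figure D4:**
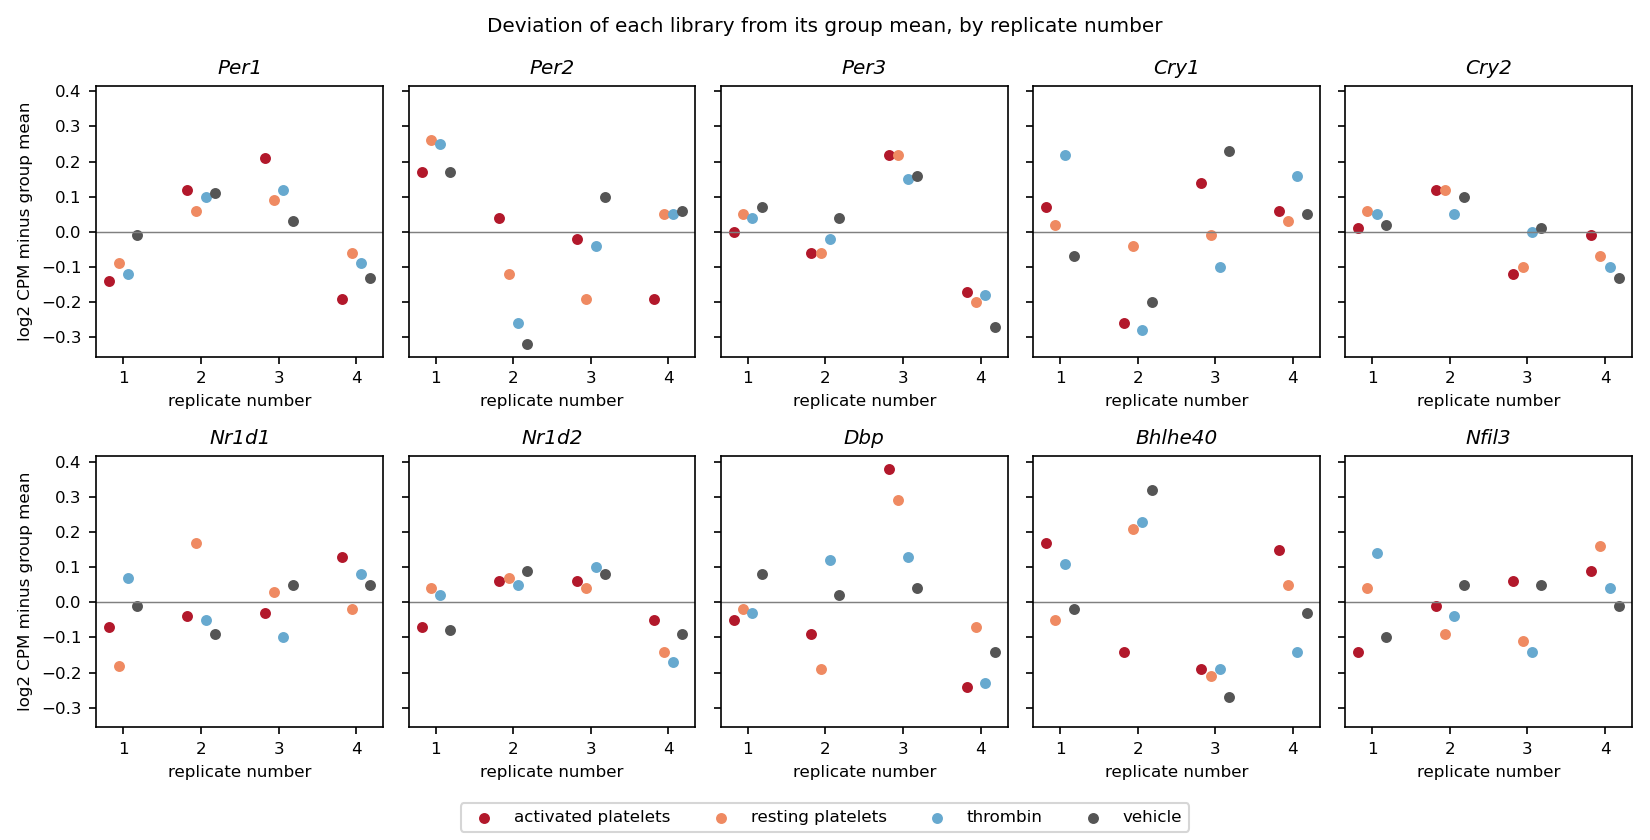
Deviation of each library's log2 CPM from its group mean (vertical axes) by replicate number (horizontal axes) for the 10 clock genes, 1 point per library coloured by group. Per3 lies 0.15 to 0.22 above the mean in number 3 of every group, and Bhlhe40 lies at -0.27 to -0.19 there.

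Of 23 other clock genes, 20 were counted well enough to test. With activated platelets against vehicle 4 of the 20 rose, beside 12.2% of all genes, and 4 fell, beside 13.6%, and their median size of log2 fold change was 0.18, against 0.15 for all genes. Among the activators, Arntl (BMAL1) rose by 0.43 ± 0.09 on the log2 scale (adjusted p = 0.0027, edgeR), with 16.5, 14, 13.4 and 16.3 CPM with activated platelets and 10.6, 11.9, 11 and 11.3 CPM with vehicle. Npas2, the partner that can stand in for CLOCK, fell most of all clock genes. Npas2 had 0.681, 0.797, 0.647 and 0.755 CPM with activated platelets, 1.33, 2.84, 1.43 and 1.46 CPM with resting platelets, 3.85, 4.97, 2.38 and 2.72 CPM with thrombin, and 2.83, 5, 2.31 and 2.28 CPM with vehicle. It was 4.25-fold lower with activated platelets than with vehicle, at -2.09 ± 0.33 on the log2 scale (adjusted p = 0.000217, edgeR), on only 18 to 23 counts a library with activated platelets. Resting platelets gave Npas2 -0.80 ± 0.30 (adjusted p = 0.155, edgeR; 0.000496 with the block). Clock itself averaged 75.5 ± 2.7 CPM with activated platelets and 75.7 ± 4.12 CPM with vehicle (SD, n = 4 each).

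Rora, the receptor that activates where the REV-ERBs repress, fell, at -0.46 ± 0.08 on the log2 scale (adjusted p = 0.000794, edgeR). Its values were 24.8, 30.5, 29.2 and 27.2 CPM with activated platelets and 37.3, 39.8, 42.2 and 34.3 CPM with vehicle, and they did not overlap. Of 9 genes that modify or degrade clock proteins, 2 rose and 2 fell, and their median size of log2 fold change, 0.15, equalled that of all genes. The deubiquitinase Usp2 rose by 0.47 ± 0.11 (adjusted p = 0.00393, edgeR) and the kinase Csnk1e by 0.16 ± 0.05 (adjusted p = 0.0454). Fbxw11, of the ubiquitin ligase that marks PER proteins, fell, at -0.25 ± 0.04 (adjusted p = 0.000378, edgeR), and so did the kinase Gsk3b at -0.15 ± 0.05 (adjusted p = 0.0227). The Csnk1e and Gsk3b calls were lost in 9 and 7 of 12 fits that left out libraries. Noct, a rhythmic output gene, rose by 0.33 ± 0.09 with activated platelets (adjusted p = 0.0102, edgeR, and 0.0675 without number 4). With resting platelets it rose by 0.52 ± 0.09 (adjusted p = 0.00453, edgeR). It was the only one of the 20 called there without the block, beside 2.07% of all genes higher and 1.32% lower. With the block 6 were called there, 3 higher and 3 lower, beside 10.9% and 10.6% of all genes. Bhlhe41 (DEC2), the relative of Bhlhe40, was at -0.25 ± 0.09 (adjusted p = 0.0616, edgeR; 7.32e-05 with the block), while Bhlhe40 rose. Against thrombin alone Bhlhe41 was lower with activated platelets, at -0.50 ± 0.09 (adjusted p = 0.00079, edgeR), and so was Nampt, the enzyme of NAD salvage, at -0.32 ± 0.10 (adjusted p = 0.0218).

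**Figure D5:**
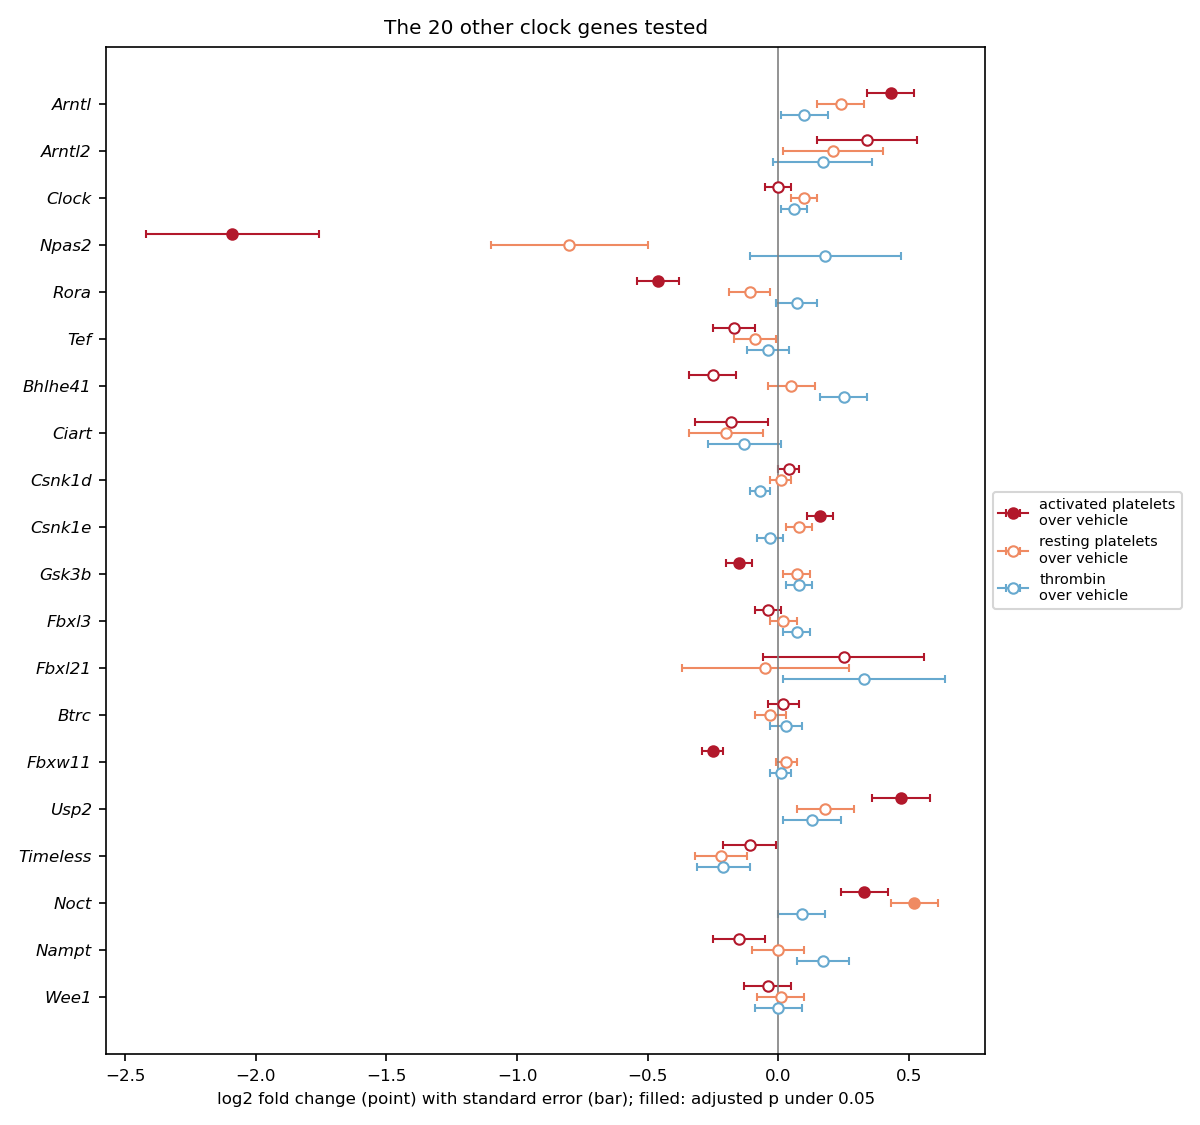
Log2 fold change over vehicle (horizontal axis) of the 20 other clock genes tested, with activated platelets, resting platelets and thrombin, standard errors as bars; filled points have an adjusted p under 0.05 by edgeR. Npas2 stands apart at -2.09 with activated platelets, and Clock lies at 0.

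Lists of genes tied to the clock by a shared regulator were counted as well, in the comparison where 12.2% of all genes rose and 13.6% fell. Of 6 genes known to be repressed by REV-ERBs in macrophages, 5 were tested and 3 rose with activated platelets over vehicle, namely the chemokine receptor Cx3cr1 (0.93 ± 0.18 on the log2 scale), the inflammasome sensor Nlrp3 (0.60 ± 0.12) and the cytokine Il1b (2.86 ± 0.28), with adjusted p-values of 0.00127, 0.00128 and 1.65e-06 by edgeR. Nr1d1 rose and Nr1d2 did not pass in the same comparison. Of 9 targets of the cAMP-responsive factor CREB, which also acts on Per1, 8 were tested and 8 rose, among them Fos (2.07 ± 0.11), Pde4d (1.80 ± 0.12) and Crem (1.17 ± 0.10), with a median of 1.46. Of 7 genes induced by glucocorticoids, another inducer of Per1, 4 rose, among them Sgk1 (1.35 ± 0.13) and Fkbp5 (0.96 ± 0.13), and Zbtb16 fell (-1.09 ± 0.14). Of 8 genes induced by hypoxia, a known inducer of Bhlhe40, 2 rose (Vegfa at 2.85 ± 0.14 and Slc2a1 at 0.79 ± 0.11) and 5 fell, among them Ndrg1 (-1.30 ± 0.15) and Pdk1 (-1.01 ± 0.05). The median log2 fold change of all genes was 0.00 in this comparison, and no link between these lists and the clock genes was tested.

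For each of the 8 clock genes called with activated platelets over vehicle, the genes with the most similar pattern were found among 10376 genes with a mean of at least 5 CPM. Likeness was the root mean square difference of log2 CPM over the 16 libraries, each gene centred on its own mean. The closest match to Dbp was Lpar5, a receptor for lysophosphatidic acid, at 0.101, where Dbp's own root mean square about its mean was 0.422. Lpar5 averaged 21.4 ± 3.47 CPM with activated platelets, 32.5 ± 5.96 with resting platelets, 41.4 ± 4.42 with thrombin and 45 ± 2.61 CPM with vehicle (SD, n = 4 each). The next closest to Dbp was Slc45a4 at 0.122. Per1 was closest to the small GTPase Rhog (0.058), Per3 to Man1c1 (0.105) and Gpr146 (0.107), and Nfil3 to Lrrfip1 (0.108) and the phosphodiesterase Pde8a (0.116). Per2 was closest to Ehd1 (0.148) and the cell cycle factor E2f2 (0.152), Cry1 to the histone demethylase Kdm6b (0.112) and Tbl2 (0.112), and Nr1d1 to Ankrd28 (0.077) and Emd (0.078). Bhlhe40, with a root mean square of 0.453 about its own mean, was closest to Fbxo32 (0.173) and Chst11 (0.176), and Nr1d1's was 0.134.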

How the data were processed

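RNA was sequenced from 16 macrophage libraries (TruSeq stranded mRNA kits, per the labels). Per the submitters' processing notes the tools included cutadapt 2.5, STAR 2.7.2b and featureCounts 1.6.4 with Subread, and the builds named were GRCm39 and mm10; the strand setting and the role of each build were not stated there. The deposited table holds estimated counts per gene, of which 25.5% of the values above 0 are not whole, with GRCm39 positions per the file headers. They were rounded, and the absolute changes of the single values summed to 0.0073% of all counts. Samples were grouped by the treatment in their labels.

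All 16 libraries were fitted as 4 groups with edgeR 4.0.16 (filterByExpr, TMM, robust quasi-likelihood test, two-sided) in R 4.3.3, leaving 15610 genes, with Benjamini-Hochberg adjustment over all of them and a threshold of 0.05. The scripts were tested on simulated data. The 6 comparisons were each treatment against vehicle, activated platelets against thrombin and against resting platelets, and the interaction. CPM were computed from the rounded counts and each library's total over the genes tested, multiplied by its TMM factor. Library totals were 22555094 to 30602623 counts; counting error was not separated from the spread between libraries.

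Alternatives were DESeq2 1.42.0, limma-voom (limma 3.58.1), RLE size factors, no filter on low counts, truncated in place of rounded counts, the compared groups alone, each library or replicate number left out, and the replicate number as a block, alone and with a GC correction that covered 93.5% of genes. The labels share replicate numbers across groups without saying what a number marks. Same-numbered libraries deviated together from their group means (24 correlations, 0.29 to 0.617, against -0.436 to 0.253 for other pairs). Each of the 16 libraries was closest to a library of its own number. The main fit did not pair libraries by number, and the number entered a fit only as the block. Calls given without mention of the block therefore leave this shared deviation out.

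The members and gene lists were chosen with earlier results of these data known. Genes named were the 10 members, clock-list genes called in at least 1 comparison (values for at most 4 per list, by smallest p with activated platelets against vehicle), the gene on the opposite strand where one was well counted, and the 2 genes most like each called member; other list genes were named as examples after their values were seen. Promoter words were searched in RefSeq windows. Some genes that these rules name are not reported here.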

Additional observations from a re-analysis of the deposited data

Results flagged for a closer look

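Of the 40 sets of 4 libraries formed by the 10 clock genes in the 4 groups, 1 held a library far from the others. Nr1d2 in resting-platelet replicate 4 was 118 CPM, where the other libraries of that group had 134 to 137 CPM, and the gap passed Dixon's limit for 4 values. About 1 in 20 sets is expected to pass that limit by chance. Without that library Nr1d2 was lower with activated than with resting platelets (adjusted p = 0.0493, edgeR), and its interaction was also called (adjusted p = 0.0382, edgeR).

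The change with thrombin differed between wells with and without platelets, by edgeR's interaction test, for Per1 (0.46 on the log2 scale), Per2 (0.70) and Cry2 (0.34). By the sample labels' 0.1 U/ml for thrombin alone, the thrombin dose differed between these wells as well. Among the other clock genes the interaction was -0.42 for Rora (adjusted p = 0.034, edgeR), -0.55 for Bhlhe41 (adjusted p = 0.0143, edgeR), -0.30 for Gsk3b (adjusted p = 0.00921, edgeR) and -0.30 for Fbxw11 (adjusted p = 0.0057, edgeR). The Gsk3b and Fbxw11 calls were lost without the libraries numbered 1 (adjusted p = 0.167 and 0.0834), the Bhlhe41 call without number 1, 2 or 3 (up to 0.189), and the Rora call in 12 of 20 fits that left out libraries (up to 0.351).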

How the results depend on the processing

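None of the 10 clock genes or the 20 other clock genes tested changed direction in a call under any alternative run. With activated platelets against vehicle, between 6 and 8 of the 10 clock genes and 6 to 9 of the other clock genes were called when libraries were left out, and the calls of Per1, Per2, Per3, Dbp, Bhlhe40 and Nfil3 were kept in all 12 such fits. The replicate block raised the counts of called clock genes to 3 with thrombin (from 0), 5 with resting platelets (from 3) and 7 for the interaction (from 3). The counts of other clock genes called rose to 3, 6 and 10 there (from 0, 1 and 4) and to 10 for activated against resting platelets (from 5). Over all genes the block raised the calls too. With thrombin 3.91% were higher and 4.32% lower (from 0.0897% and 0.199%). With resting platelets the shares were 10.9% and 10.6% (from 2.07% and 1.32%). For the interaction they were 13.1% and 15.9% (from 4.56% and 5.37%). The blocked share of all genes for activated against resting platelets is not given here. The block with the GC correction gave 1 and 5 clock genes for thrombin and the interaction, and 1, 5, 7 and 9 other clock genes for thrombin, resting platelets, the interaction and activated against resting platelets; the cause was not tested. No filter on low counts left 1 clock gene called with resting platelets, Bhlhe40. Leaving out libraries gave 0 to 4 clock genes with resting platelets, 6 to 9 against thrombin alone, 3 to 6 for activated against resting platelets and 0 to 4 for the interaction. For other clock genes the ranges were 5 to 10, 1 to 5 and 0 to 5 for the last 3 comparisons, with 5 without thrombin replicate 3, 1 without number 1 and 0 without number 1. Depth limited Fbxl21 and Npas2, at 11 and 18 counts in their lowest libraries.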
